A study of Mus musculus with 2 samples.

Results

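The genes described here are 10 regulators of the G1 phase of the cell cycle: the D-type cyclin genes Ccnd1, Ccnd2 and Ccnd3, the kinase genes Cdk4, Cdk6 and Cdk2, the kinase inhibitor genes Cdkn2c, Cdkn2d and Cdkn1a, and the retinoblastoma gene Rb1. They were chosen by name, as every probe set whose platform annotation carries one of these symbols, which gave 27 of the 34945 probe sets with 1 gene symbol and 10 of 18193 genes. Total RNA of mouse regulatory T cells was hybridised to single-colour 3' expression arrays, 1 array for a Hopx-sufficient sort and 1 for a Hopx-/- sort. Hopx is a homeodomain-only transcription cofactor. Both sorts were T cells taken ex vivo after immunization, raised in vivo by way of dendritic cells and sorted as positive for CD25 and Foxp3. The mouse strain, the age, the immunizing agent, the part of Hopx deleted and the number of animals behind an array are not stated in the labels.

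A cell that leaves quiescence first makes D-type cyclins, which switch on the kinases CDK4 and CDK6. These kinases phosphorylate the retinoblastoma protein, which then releases E2F factors, and E2F factors drive cyclin E and the genes of DNA replication. Cyclin E activates CDK2, which completes the phosphorylation of the retinoblastoma protein. The INK4 inhibitors (Cdkn2c encodes p18, Cdkn2d encodes p19) bind CDK4 and CDK6, while the CIP/KIP inhibitor p21, encoded by Cdkn1a, binds cyclin and CDK complexes and is a classical p53 target. In T cells, IL-2 and antigen signals act on this switch.

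Each deposited value is on a log scale, taken as log2, and the row of every probe set is centred, so that it has equal and opposite values in the Hopx-sufficient and the Hopx-deficient column. No signal level is kept, so the levels of these genes cannot be ranked against each other, and whether a transcript was detected cannot be said. A difference below is the Hopx-deficient minus the Hopx-sufficient value, averaged over the probe sets of a gene. As each genotype has a single array, replicate error is unknown and no difference was tested. Spread is given between probe sets of a gene, which share the same RNA. Over the 9010 genes with more than 1 probe set the SD within a gene was 0.18. Spike-in controls of the hybridization, which measure no mouse RNA (18 probe sets), ranged from -0.21 to 0.01, and the part that such a technical shift has in the results was not tested. Hopx itself was 35.4-fold lower on the Hopx-/- array, with its 2 probe sets at -5.43 and -4.86. In sorted bulk cells, fewer dividing cells and less RNA per cell cannot be told apart.

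The 3 kinase genes were all lower in Hopx-deficient cells and both INK4 inhibitor genes were higher, while the D-type cyclins were divided. All differences were small. No member reached 1.5-fold (0 of 10), a size reached by 285 genes, 1.57% of all genes, in either direction. Past a log2 difference of 0.32 the lower side held 1 member, Cdk4, against 6.61% of all genes, and the higher side held 1 member, Cdkn2d, against 4.36%. Over the 10 members the median difference was 0.04, with 5 genes lower and 5 higher, and the median over all genes was 0.01. Of the 5 higher, Ccnd3 was lower by its RefSeq probe set (-0.22), and the RefSeq probe set of Rb1 stood close to 0 (-0.02). With RefSeq probe sets alone where a gene has one, the median of the members was -0.19. Of the 27 probe sets 20 were lower and 7 higher. Of the 20, 7 belong to Ccnd2 and 8 to the kinase genes, so genes with many probe sets weigh more in this count. Over all genes 47.4% were lower, and the median over all probe sets with 1 symbol was 0.01. Cdkn2d was the 1 member outside the central 95% of all genes, which ran from -0.47 to 0.38.

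The region before the Cdk4 start is shown for the member gene that was lowest in Hopx-deficient cells, and the region before the Cdkn2c start for an inhibitor gene that was higher. Both are the 250 bases before the RefSeq gene start in GRCm38.p6, written 5' to 3' on the strand of the gene, chr10:127063285-127063534 on the plus strand for Cdk4 and chr4:109666757-109667006 on the minus strand for Cdkn2c. No other gene of the RefSeq table lies over either stretch. Capitals mark the E-box CACGTG and the GC box GGGCGG, in either orientation.
Cdk4: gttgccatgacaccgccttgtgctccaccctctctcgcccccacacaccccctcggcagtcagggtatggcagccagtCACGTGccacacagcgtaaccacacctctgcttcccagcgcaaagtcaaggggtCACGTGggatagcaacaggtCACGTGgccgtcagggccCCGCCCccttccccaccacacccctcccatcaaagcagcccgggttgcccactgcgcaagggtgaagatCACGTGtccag
Cdkn2c: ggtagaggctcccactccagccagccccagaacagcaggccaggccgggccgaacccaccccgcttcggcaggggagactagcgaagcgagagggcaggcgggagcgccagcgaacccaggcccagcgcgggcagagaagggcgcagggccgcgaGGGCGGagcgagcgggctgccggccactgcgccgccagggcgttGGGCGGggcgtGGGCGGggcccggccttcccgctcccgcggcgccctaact

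The Cdk4 stretch holds the E-box 4 times and the GC box 1 time. The Cdkn2c stretch holds no E-box and 3 GC boxes. The promoters of 300 bases used for the shares below are longer than these stretches. In them Cdk4 has 3 GC boxes and this Cdkn2c promoter 4, with the E-box counts unchanged. The E-box, which MYC and related factors bind, was found in 7.15% of 32851 RefSeq promoters of 300 bases, and 8 of these promoters held it 4 or more times. The GC box, which Sp1 binds, was found in 35.7%. Promoters of 7 of the 10 members were matched, 10 promoters in all. Of these, 3 held an E-box, those of Cdk4 and Cdk6 and a second promoter of Cdkn2c, and 7 held a GC box, among them promoters of lower (Cdk4, Cdk2, Cdkn1a) and higher (Cdkn2c, Cdkn2d) genes. None of these 10 held the E2F sequence TTTCGCGC or TTTGGCGC (0.813% of all promoters, either strand), the CArG box bound by serum response factor (1.63%) or the STAT sequence TTCNNNGAA (8.30%). The E-box and GC box were added to the search after the differences were known. A match describes letters in this window and is not a binding site shown in these cells.

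**Figure D1:**
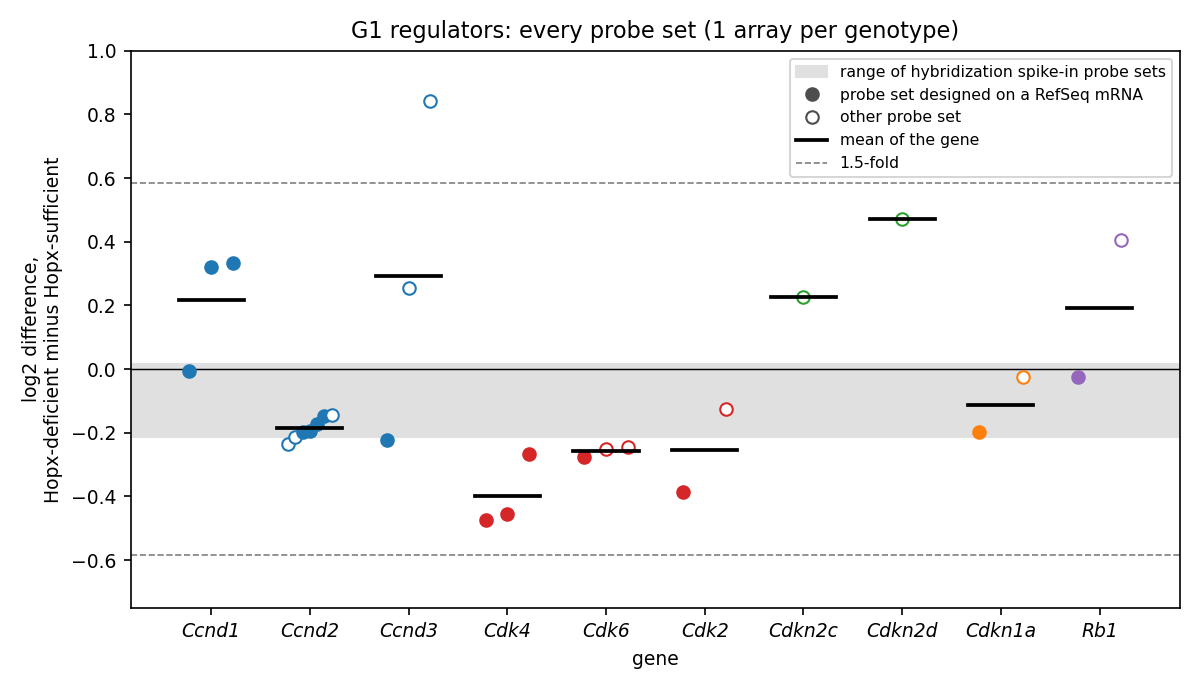
Each point is 1 probe set and each black bar the mean of a gene; the y axis is the log2 difference, Hopx-deficient minus Hopx-sufficient, with 1 array per genotype (blue, D-type cyclins; red, kinases; green, INK4 inhibitors; orange, Cdkn1a; purple, Rb1). All 8 kinase probe sets lie below 0, both INK4 probe sets lie above it, and the 3 Ccnd3 probe sets spread from -0.22 to 0.84.

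The D-type cyclins were divided, with Ccnd2 lower and Ccnd1 higher. Ccnd2, the D-type cyclin that antigen and IL-2 receptor signals induce early in lymphocytes, had a mean value of 0.09 in the Hopx-sufficient and -0.09 in the Hopx-deficient column. All 7 of its probe sets were lower in Hopx-deficient cells, between -0.24 and -0.14, and the mean difference was -0.19 (1.14-fold lower, SD 0.03 between probe sets). Of these 7, 4 were designed on the same RefSeq record. The Ccnd2 probe sets agreed more closely than those of any other of the 97 genes with 7 probe sets. For these genes the median range was 0.46 against 0.09 for Ccnd2. The size lies inside the spike-in range all the same. Ccnd2 overlaps the noncoding gene 9330179D12Rik, which differed by 0.33, over 2800 bases.

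Ccnd1, a cyclin used mainly outside the lymphoid lineage, had a mean value of -0.11 in the Hopx-sufficient and 0.11 in the Hopx-deficient column, a difference of 0.22 (1.16-fold higher). Its 3 probe sets were designed on the same RefSeq record. They gave 0.33, 0.32 and -0.01, so the mean rests on 2 of the 3. Ccnd1 overlaps LTO1, which differed by 0.31, over 818 bases. Whether a Ccnd1 probe set reads RNA of that stretch was not tested.

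Ccnd3, the D-type cyclin needed for the expansion of immature T cells, had a mean value of -0.15 in the Hopx-sufficient and 0.15 in the Hopx-deficient column, a difference of 0.29 (1.22-fold higher). This mean joins probe sets that contradict each other. The one designed on the RefSeq mRNA, 1415907_at, gave -0.22, while 1444323_at gave 0.25 and 1438805_at gave 0.84 (1.79-fold higher), the single member probe set past 1.5-fold. Both of these were designed on other sequence records, BG143624 and BE691816. The range of 1.07 was exceeded in 8 of the 2366 genes with 3 probe sets. Taken from the RefSeq probe set alone, Ccnd3 was lower, at -0.22, a value close to that of Ccnd2. No direction is therefore given for Ccnd3. Its span overlaps Bysl, which differed by -0.66, over 359 bases, and the part of that overlap in the probe set values was not tested.

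**Figure D2:**
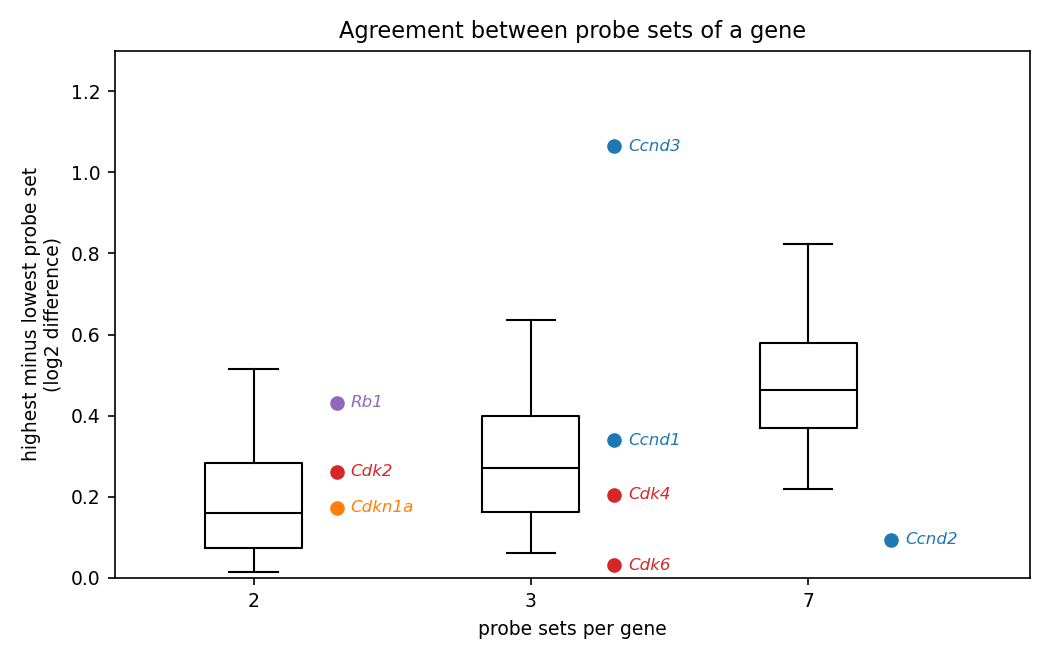
Boxes show, for all genes with 2, 3 or 7 probe sets (x axis), the quartiles of the highest minus the lowest probe set of a gene (y axis, log2 difference), with whiskers at the 5th and 95th percentiles; points are the member genes, coloured by role. Ccnd2 and Cdk6 lie under the lower whiskers and Ccnd3, at 1.07, lies above the upper one.

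Cdk4, the main catalytic partner of the D-type cyclins, was the lowest member. Its mean value was 0.20 in the Hopx-sufficient and -0.20 in the Hopx-deficient column, a difference of -0.40 (1.32-fold lower), and 4.06% of all genes were lower still. The 3 probe sets gave -0.47, -0.45 and -0.27. The smallest difference came from 1422441_x_at, whose suffix marks probes that can cross-hybridise. Cdk4 meets Tspan31 (0.15) over 2 bases at its end, per the RefSeq table.

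Cdk6, the second partner of the D-type cyclins, had a mean value of 0.13 in the Hopx-sufficient and -0.13 in the Hopx-deficient column, a difference of -0.26 (1.20-fold lower). Its 3 probe sets lay within 0.03 of each other, at -0.28, -0.25 and -0.25. Both probe sets at -0.25 were designed on the same sequence record. Of the 2366 genes with 3 probe sets, 35 had a smaller range.

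Cdk2, the partner of cyclins E and A, also stood at 0.13 in the Hopx-sufficient and -0.13 in the Hopx-deficient column, again a difference of -0.26 (1.19-fold lower). Its probe sets gave -0.39 and -0.12. The second, 1447617_at, has the finest value steps of the table. Without it Cdk2 stood at -0.39, close to Cdk4. Cdk2 lies within the annotated span of Pmel, a melanosome gene, which differed by 0.68 in the opposite direction. By their means the 3 kinase genes lay below every spike-in probe set, of which the lowest stood at -0.21 and the median at -0.12. The Cdk2 probe set 1447617_at, at -0.12, lay within the spike-in range.

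Among the inhibitors, Cdkn2d was the most different member. Its 1 probe set stood at -0.24 in the Hopx-sufficient and 0.24 in the Hopx-deficient column, a difference of 0.47 (1.39-fold higher), and 99.0% of all genes were lower. Cdkn2c, also measured by 1 probe set, stood at -0.11 in the Hopx-sufficient and 0.11 in the Hopx-deficient column, a difference of 0.23 (1.17-fold higher). Neither gene has a second probe set to check it, and neither probe set was designed on a RefSeq mRNA.

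Cdkn1a went the other way, with a mean value of 0.06 in the Hopx-sufficient and -0.06 in the Hopx-deficient column. The difference was -0.11 (1.08-fold lower), from probe sets at -0.20 and -0.03, and it lay within the spike-in range. The INK4 genes and Cdkn1a were thus on opposite sides of 0.

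The INK4 genes were also set against the kinases that their products bind. The ratio of Cdkn2d to Cdk4 was 1.83-fold higher in Hopx-deficient cells, a log2 gap of 0.87, and that of Cdkn2c to Cdk4 was 1.54-fold higher. Cdkn2d was the highest member and Cdk4 the lowest, so their gap is the largest between any pair of members. It is not particular to INK4 genes that a member stood above Cdk4. By their means, the log2 gaps of Ccnd3, Ccnd1 and Rb1 to Cdk4 were 0.69, 0.61 and 0.59. The means of Ccnd3 and Rb1 join probe sets that disagree in sign. By their RefSeq probe sets Ccnd3 (-0.22) and Rb1 (-0.02) stood nearer to Cdk4 (-0.40), though still above it. Against Cdk6 the ratios were 1.66-fold higher for Cdkn2d and 1.40-fold higher for Cdkn2c. A shift common to all probe sets of an array cancels in such a ratio, but a shift that depends on signal does not.

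Rb1, which encodes the substrate that CDK4 and CDK6 act on, had a mean value of -0.10 in the Hopx-sufficient and 0.10 in the Hopx-deficient column, a difference of 0.19 (1.14-fold higher). Its 2 probe sets differed in sign. The RefSeq probe set 1417850_at gave -0.02 and 1444400_at, designed on the record BG069875, gave 0.41. Lpar6, a receptor gene that lies wholly inside Rb1, was higher by 0.72; whether the second Rb1 probe set reads RNA of that stretch was not tested. As for Ccnd3, no direction is given for Rb1.

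**Figure D3:**
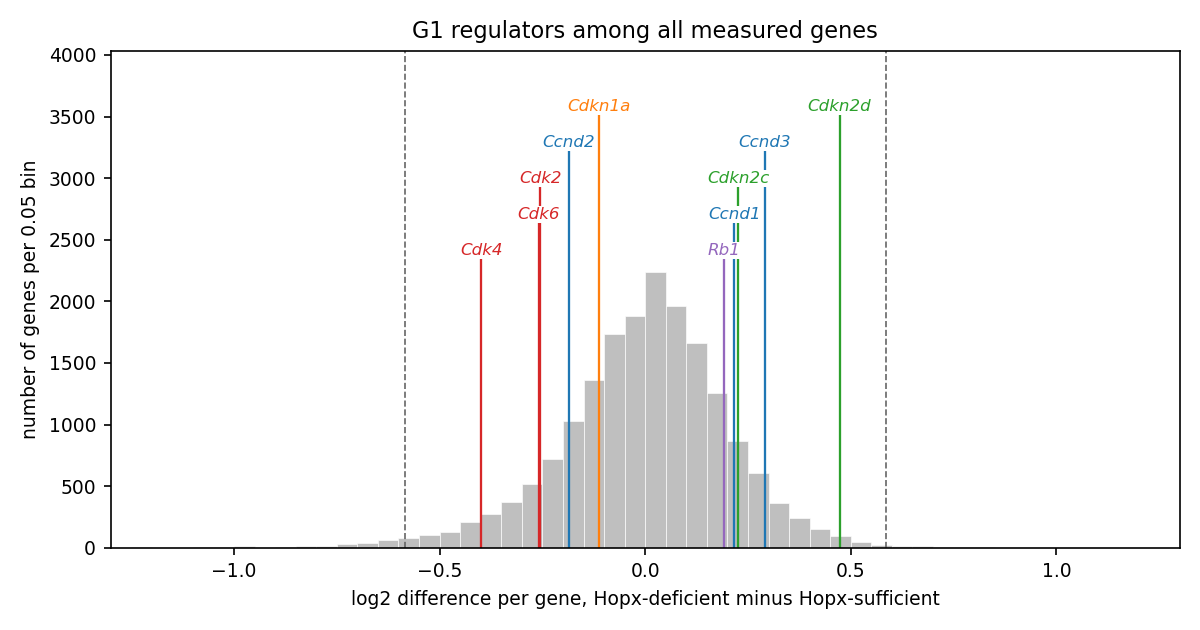
Grey bars count all 18193 genes by log2 difference per gene (x axis, Hopx-deficient minus Hopx-sufficient; 7 genes below -1.5 are not counted and the axis ends nearer to 0), and coloured lines mark the 10 members; dashed lines mark 1.5-fold. All members lie inside the dashed lines, from Cdk4 at -0.40 to Cdkn2d at 0.47.

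The disagreement in Ccnd3 and Rb1 had the same form, with probe sets on other records above the RefSeq probe set. Over the 2173 genes that have both kinds, the other probe sets were higher in 53.2%, by a median of 0.01, and the kinds had opposite signs in 36.2%. The gap was 0.77 in Ccnd3, exceeded in 6 genes, and 0.43 in Rb1, with 95.4% of genes below it. In Cdk2 (0.26) and Cdkn1a (0.17) the other probe sets were higher as well, without a change of sign, and in Cdk6 (0.03) and Ccnd2 (-0.02) the kinds gave nearly the same value. With RefSeq probe sets alone where a gene has one, Ccnd2, Ccnd3, the 3 kinase genes and Cdkn1a were lower and Ccnd1 was higher. Rb1 stood at -0.02, close to 0. Cdkn2c and Cdkn2d have no RefSeq probe set, so their higher values rest on probe sets of the other kind alone.

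Of all genes, 47.4% were lower in Hopx-deficient cells and 228 of 18193 were at least 1.5-fold lower. Of the 8 genes for cyclins E and A and the activators of CDK2, 7 were lower (median -0.24) and 3 were at least 1.5-fold lower: Ccne1, encoding cyclin E1, at -0.82 with probe sets at -0.84 and -0.81, Ccne2, encoding cyclin E2, at -0.61, and Cdc25a, a phosphatase that activates CDK2, at -0.60. Of the 7 lower genes, Mnat1 (-0.01) and Ccna1 (-0.08) lay near 0. Cdk7, the 1 higher gene, stood at 0.03 with probe sets from -0.40 to 0.43. All 17 measured S-phase genes that E2F factors regulate were lower, with a median of -0.44 and 5 of them at least 1.5-fold. In 5 of the 17 the mean joined probe sets of both signs. The 5 past 1.5-fold were Cdc6 (-0.96), Gins2 (-0.88) and Orc1 (-0.69), with roles in starting replication, and Mcm2 (-0.61) and Mcm3 (-0.59), subunits of the replicative helicase. Ccne2 and Cdc6 were each measured by 1 probe set. That replication genes were lower was known from these arrays before the S-phase list was drawn up, so that list is not independent evidence of its direction.

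Of the 12 genes for E2F factors, their DP partners and the Rb relatives, 8 were lower and 4 higher (median -0.27). E2f1, an activating E2F, was the 1 gene past 1.5-fold, at -0.71, with probe sets from -1.01 to -0.14. E2f8 stood at -0.45 and E2f3 at -0.42. Rbl2, encoding the Rb relative p130 of resting cells, stood at 0.41 with both probe sets between 0.38 and 0.45, whereas Rbl1, encoding p107, which E2F induces, stood at -0.27; these Rb relatives were picked after their values were seen.

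Most of the remaining CDK inhibitor genes were higher, as were the INK4 members. Of 5 measured, 4 were higher and 1 lower (median 0.27), none by 1.5-fold, while 51.4% of all genes were higher. Cdkn2a at 0.09 and Cdkn1c at -0.04 lay near 0. Cdkn3, a phosphatase that acts on CDK2, stood at 0.55, Cdkn1b, which encodes p27 and restrains resting T cells, at 0.35 with probe sets at 0.25 and 0.46, and Cdkn2b, the INK4 gene for p15, at 0.27. Cdkn3 and Cdkn2b were each measured by 1 probe set. For proteins that turn over G1 regulators, 8 of 14 genes were lower (median -0.14, none by 1.5-fold). Skp2, the F-box protein that marks p27 for degradation, stood at -0.50, Dtl, an adaptor for degradation of Cdt1 and p21, at -0.48, and Cks1b, the cofactor of Skp2, at -0.26. The 6 probe sets of Skp2 ranged from -1.07 to -0.17.

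The MuvB core forms the DREAM complex, which silences cell cycle genes at rest, and joins B-Myb (Mybl2) and Foxm1 to activate them in dividing cells. Of 7 genes on this list 4 were lower (median -0.12). Mybl2 stood at -0.48, Lin54 at -0.23 and Rbbp4 at 0.20. The Rbbp4 mean joins probe sets of both signs, from -0.10 to 0.61. Of 24 other cyclin and CDK genes 9 were lower and 14 higher (median 0.05), and 1 was past 1.5-fold, Ccng2, encoding a cyclin of arrested cells, at 0.82. Ccnb2, a mitotic cyclin gene, stood at 0.54 and Cdk1, the mitotic kinase gene, at -0.51, each with 1 probe set. For the surroundings of Cdkn1a, 17 genes of the p53 pathway had a median of 0.08, with 14 higher, 3 lower and none past 1.5-fold. Over all genes 51.4% were higher. Gadd45a and Bbc3, each with 1 probe set, stood at 0.50 and Sesn1 at 0.47, while Cdkn1a itself was at -0.11.

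**Figure D4:**
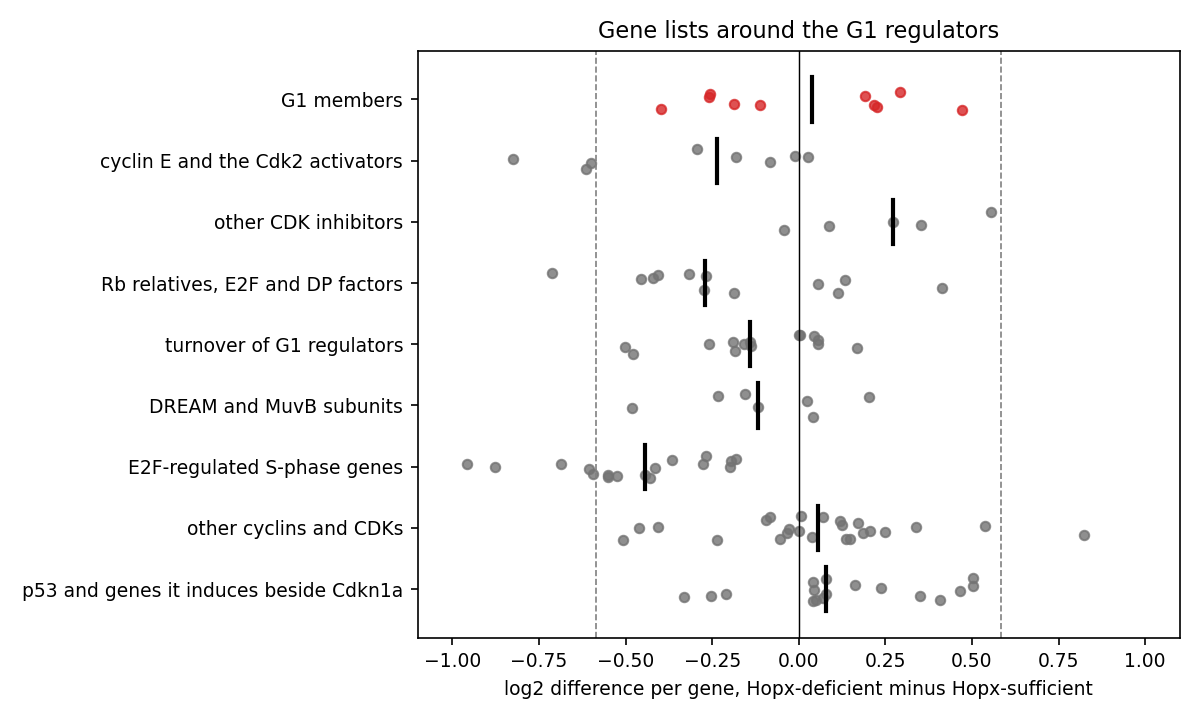
Each point is the log2 difference of 1 gene (x axis, Hopx-deficient minus Hopx-sufficient), each row a gene list, each vertical bar the list's median, and the dashed lines mark 1.5-fold; vertical scatter within a row has no meaning. The S-phase genes lie wholly below 0 with a median of -0.44, and the other CDK inhibitors have a median of 0.27.

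Markers of cell types differed between the sorts too. Of the genes used in the sort, Foxp3 differed by 0.28 and Il2ra, which encodes CD25, by -0.05. Of 7 T cell markers 6 were higher (median 0.23), led by Cd247 (0.31), Trat1 (0.30) and Cd3g (0.29), and Cd4 stood at -0.01. All 4 measured B cell markers were lower, from -0.41 (Cd79a) and -0.20 (Ms4a1) to -0.06 (Pax5 and Cd79b). Of 4 CD8 T and NK cell markers 3 were lower (median -0.18), Klrd1 by the most (-0.41), then Ncr1 (-0.23) and Cd8a (-0.12). The Cd8a probe sets ranged from -0.29 to 0.11. Of 8 macrophage and dendritic cell markers 4 were higher (median 0.10), with C1qb at 0.42, C1qa at 0.37 and Lyz2 at -0.38. Of the erythroid and neutrophil markers S100a8 stood at 0.14, Alas2 at 0.08 and S100a9 at -0.07. Levels are not held in the table, so whether defining markers were near background cannot be given, and the part of these markers in the results was not tested.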

How the data were processed

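The authors deposited 1 table of log2-type values, 45101 probe sets by 2 arrays, in which every row is centred on 0; the largest absolute sum of a row was 1e-06. No source used here gives the log base, scanner software or normalization. Base 2 was assumed; with natural logs every difference would be larger by a factor of 1.44. Groups came from the sample titles. The number of arrays limits the precision.

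Probe sets were named from the 2016 platform annotation; current symbols came by gene ID from a RefSeq table (GRCm38.p6) that matched 34741 of 34945 probe sets with 1 symbol; control probe sets and 932 with several symbols were left out. The column difference was used without centring, and a gene's value was the mean over its probe sets. The thresholds were rules of size. The functions were tested on simulated data. Members and lists were chosen with earlier results of these data known. Genes named are Hopx, every member, and in each list the genes at least 1.5-fold apart and the 3 most different; overlapping genes and any further gene, such as Cd4, Foxp3 and Rbl2, were picked with their values known. Python 3.11.15, numpy 2.4.6, pandas 2.3.3 and matplotlib 3.10.9 were used. Alternatives were centring, the median or most different probe set, removal of probe sets with the suffix _x_at or _s_at, natural logs, other thresholds and, added after seeing the data, RefSeq probe sets alone and leaving out probe sets of the finest value steps.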

Additional observations from a re-analysis of the deposited data

How the results depend on the processing

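No paired analysis was possible because the study has a single array of either genotype; leaving out an array leaves no comparison. Over 7 settings and 10 members, 2 of 70 values changed sign, both with RefSeq probe sets alone: Ccnd3 moved to -0.22 and Rb1 to -0.025, and the median of the members moved to -0.19. The other 8 members kept their sign in all 7 settings. Of these 8, Ccnd1 alone had probe sets on both sides of 0. For the rest, no choice among probe sets could change the sign, so its stability is not a check of them. No setting took the negative Ccnd1 probe set (-0.01) alone, so the stable sign of Ccnd1 is not a check either. When a gene took the value of its most different probe set, Ccnd3 stood at 0.84 and Rb1 at 0.41, 1 member passed 1.5-fold, 430 genes were lower and 179 higher by that size, and the median of the S-phase genes was -0.63. With natural logs Cdkn2d stood at 0.68, 1 member passed 1.5-fold, 702 genes were lower and 349 higher, and the S-phase median was -0.64. A threshold of 0.32 on the log2 scale gave 2 members, 1203 genes lower and 794 higher; 2-fold gave 25 lower and 2 higher. Values without signal levels cannot show which probe sets were near background.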

Other observations

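Of the 34945 probe sets with 1 symbol, 712 (2.04%) had a difference of exactly 0, and 0 of the 27 member probe sets did.

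The E-box that occurs 4 times before Cdk4 was carried by promoters of 1479 measured genes. Of these genes 748 were lower and 720 higher in Hopx-deficient cells, which is 50.6% lower, with a median of -0.0033. Of all 14452 measured genes with a promoter 6880 were lower and 7401 higher, which is 47.6% lower, with a median of 0.0073. Of the 5 other genes with 4 or more matches in a promoter, 3 were measured: Lamp1 (0.23), Mfsd1 (0.15) and Nxf2 (0.07), while Cdk4 stood at -0.40. The motif was chosen after the Cdk4 difference was known.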
